A study of Mus musculus with 7 samples.

Results

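The 10 genes described here handle iron and heme in the proximal intestine: Cybrd1, Slc11a2, Slc46a1, Slc40a1, Heph, Tfrc, Fth1, Ftl1, Hmox1 and Hamp. The array files pair probes with accessions and not with gene names, so a probe was taken as a member where a RefSeq table gives its accession 1 of these symbols. This found all 10 genes, with 19 probes, among 20883 named genes and 55681 probes on the array. The genes were followed in intestinal epithelial cells of mice after deletion of Mob1a and Mob1b, 2 genes for adaptor proteins that switch on the LATS kinases in Hippo signalling.

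All mice were males of the C57BL/6J background, aged 8 weeks, that carried floxed alleles of both genes (Mob1a f/f; Mob1b f/f) and received tamoxifen at 80 mg/kg per day on 2 days. The knockout mice also carried Villin-creERT2, a tamoxifen-activated Cre recombinase under the Villin promoter, which is active throughout the intestinal epithelium, so deletion was not limited to absorptive cells. They were sampled at day 4 (2 arrays), day 7 (2 arrays) and day 10 (1 array) after tamoxifen. The 2 control arrays are from mice without Cre, so an effect of active CreERT2 cannot be told apart from an effect of the deletion. The labels place the controls at day 7 after tamoxifen and the series' design text at day 0.

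Dietary iron enters the enterocyte in 2 forms. Non-heme iron is reduced at the brush border by Cybrd1 (duodenal cytochrome b) and imported by Slc11a2 (DMT1). Heme is broken down inside the cell by Hmox1 (heme oxygenase 1). Iron is stored in ferritin, built from Fth1 (heavy) and Ftl1 (light) subunits, or leaves across the basolateral membrane through Slc40a1 (ferroportin), where Heph (hephaestin) oxidises it. Hepcidin, the hormone encoded by Hamp and made mainly in liver, removes ferroportin from the membrane. Tfrc, the transferrin receptor, takes up iron from plasma, and in the intestine it is known mainly from crypt cells. Slc46a1 was described as a heme carrier and is best known as the proton-coupled folate transporter.

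The promoters of 3 genes are shown: those of Hamp, which appeared on the day 10 array, and its close copy Hamp2, which fell, because the 2 went opposite ways, and that of Cybrd1, because its fall was the largest among the 10 genes. RefSeq windows were given for 6 of the 10 members. Each sequence is the 250 bases upstream of the annotated start in GRCm38.p6, 5′ to 3′ on the gene's strand. Capitals mark GGCGCC (the core of BMP response elements), TTCNNNGAA (the STAT site), or ACGTG or GCGTG on either strand (the core of HIF sites, of which ACGTG also lies in the E-box CACGTG). The Hamp window is chr7:30944030-30944279 (minus strand), the Hamp2 window chr7:30924182-30924431 (minus strand) and the Cybrd1 window chr2:71117804-71118053 (plus strand).
Hamp: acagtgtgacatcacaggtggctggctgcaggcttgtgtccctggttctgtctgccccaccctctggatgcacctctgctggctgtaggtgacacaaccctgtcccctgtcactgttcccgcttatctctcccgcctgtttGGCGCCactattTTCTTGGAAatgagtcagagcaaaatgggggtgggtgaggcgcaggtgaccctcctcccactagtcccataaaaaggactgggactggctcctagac
Hamp2: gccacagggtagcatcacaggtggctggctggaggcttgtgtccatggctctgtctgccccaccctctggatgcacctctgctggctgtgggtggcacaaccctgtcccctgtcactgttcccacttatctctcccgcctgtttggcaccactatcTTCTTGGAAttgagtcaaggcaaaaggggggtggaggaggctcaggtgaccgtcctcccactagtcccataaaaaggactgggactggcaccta
Cybrd1: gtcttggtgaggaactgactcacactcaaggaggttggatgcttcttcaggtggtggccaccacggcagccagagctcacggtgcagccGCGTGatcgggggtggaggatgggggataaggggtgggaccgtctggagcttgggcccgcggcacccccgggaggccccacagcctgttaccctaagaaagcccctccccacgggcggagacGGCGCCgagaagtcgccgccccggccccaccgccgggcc
Hamp holds GGCGCC from 109 to 104 bases before the start and TTCTTGGAA from 97 to 89 bases before it. Hamp2, 89.7% identical over 253 aligned columns, has the same STAT site letters from 94 to 86 bases before its start, and the aligned BMP core carries G4A, counted from 1 at the 5′ end of the core in Hamp. Cybrd1 holds GCGTG from 161 to 157 and GGCGCC from 39 to 34 bases before the start. Among 32851 windows of this length, 9.6% hold GGCGCC, 7.0% TTCNNNGAA and 38.6% ACGTG or GCGTG. The core of the antioxidant response element (TGACNNNGC, either strand, in 10.2% of windows) is in none of the 3. These matches are letters in a window and were not tested for binding.

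Each level below is log2 of the scanner signal relative to the 75th percentile of its array, so 0 is the 75th percentile. Levels are compared between arrays for 1 probe and not between genes. Where a gene has several probes, its brightest is given unless stated. Differences are on the log2 scale with the standard error (SE) and adjusted p of limma over 24762 features, called at an adjusted p under 0.05. All arrays lay on 1 slide, with control and day 4 in row 1 and day 7 and day 10 in row 2, so slide row and the differences of day 7 or day 10 from control or day 4 cannot be told apart. The share of spots well above background ran from 46.3% to 52.4% over the arrays, and the 75th percentile signal was 545.3 on the day 10 array and lay between 319.6 and 395.0 on the others. Mob1b was lower on all 5 knockout arrays than on both controls by both of its probes (brighter probe -0.73 and -0.92 in controls, -2.21 to -2.50 in knockouts). The dim Mob1a probe was not lower at day 7 or day 10 than in controls, and whether these probes lie in the deleted exons is not known. All 23 absorptive enterocyte markers were well above background on every array before day 10, which matches the labelled cell type. The day 10 group is 1 array, assumed to vary like the others.

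Of the 10 genes 9 were tested, since Hamp was well above background on 1 array only. None of the 9 passed at day 4, where 0.0323% of all features (8, and 1531 at an unadjusted p under 0.05) did. At day 7 Cybrd1, Tfrc and Fth1 fell and Hmox1 rose, which is 4 of 9 where 7.36% of all features were called. That is 3 of 9 lower beside 4.31% of all features, and 1 of 9 higher beside 3.05%. On the day 10 array Cybrd1, Slc46a1 and Slc11a2 were called lower and Hmox1 higher, again 4 of 9, where 28.2% of all features were called. Here 17.5% of all features were lower and 10.7% higher. Between day 4 and day 7 Cybrd1 fell and Hmox1 rose, where 1.52% of all features were lower and 1.28% higher. Between day 7 and day 10 Hmox1 and Tfrc rose and Slc11a2 fell, where 7.24% of all features were higher and 11% lower. The median difference of the 9 genes from control was -0.22 at day 4, -0.58 at day 7 and -0.48 at day 10, beside -0.06, -0.06 and -0.13 over all features.

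**Figure D1:**
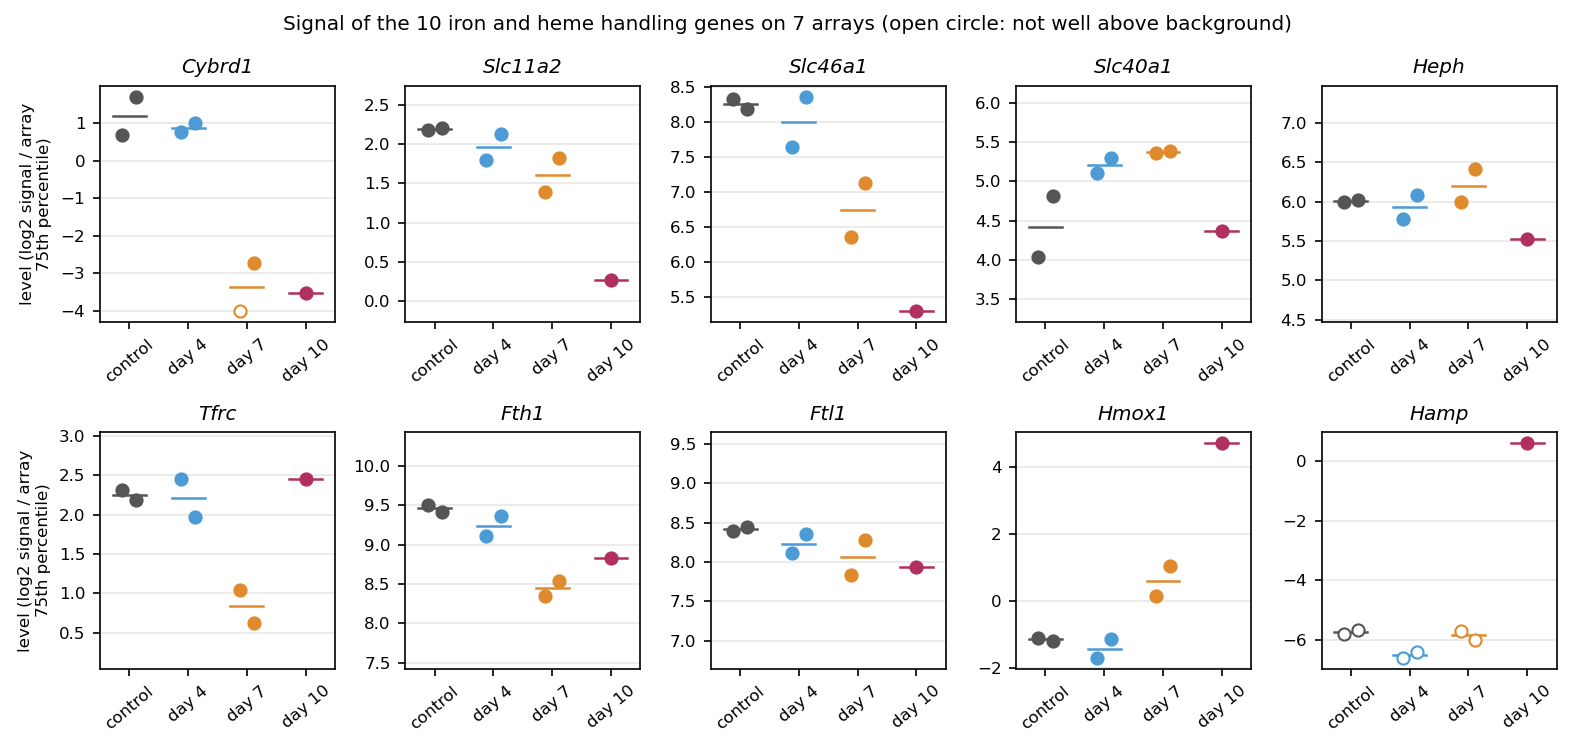
Levels of the 10 genes on each array (log2 signal relative to the array's 75th percentile), by group, with 1 point per array, a bar at the group mean and open circles where the signal was not well above background. Cybrd1 drops between day 4 and day 7, Hmox1 climbs to 4.70 on the day 10 array, and Hamp is at background on 6 arrays and at 0.59 on the day 10 array.

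Cybrd1, the ferric reductase of the duodenal brush border, had the deepest fall of the 9 tested genes at day 7. Its level was 0.69 and 1.70 in the controls, 0.76 and 1.00 at day 4, -4.01 and -2.73 at day 7, and -3.51 on the day 10 array. The day 4 arrays lay within the range of the controls, and the 3 later arrays lay far below all 4 earlier ones. At day 4 the difference from control was -0.32 ± 0.51 (adjusted p = 1). It was -4.57 ± 0.51 at day 7, 23.7-fold lower with an adjusted p of 0.0069. On the day 10 array it was -4.70 ± 0.62, 26.1-fold lower with an adjusted p of 0.0032. Day 7 also lay below day 4, by -4.25 ± 0.51 (adjusted p = 0.019), while the day 10 array did not differ detectably from day 7 (-0.14 ± 0.62, adjusted p = 0.91). The probe was not well above background on 1 of the 2 day 7 arrays, so the size of the fall there is imprecise. The other Cybrd1 probe was not well above background on any day 7 or day 10 array and was at least 11.0-fold lower at day 7 and at least 14.7-fold lower at day 10. Such a bound, here and wherever a fold is given as at least, sets the lower arrays at a floor. The floor is the lowest level that was well above background on the array, and an array's own level is used where it is higher. On day 7 replicate 1 the floor was -3.9, yet a Tfrc probe at -3.40 was not well above background. Such bounds are thus not strict limits. The day 7 call held without each replicate in turn (adjusted p 0.011 to 0.029), and with normexp background correction the difference was -3.06. The call against day 4 ended without day 4 replicate 1 (adjusted p = 0.11), day 4 replicate 2 (0.17) or day 7 replicate 1 (0.056).

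Slc11a2, the ferrous iron importer that works beside Cybrd1, passed the test on the day 10 array and not before. Its level was 2.18 and 2.20 in controls, 1.80 and 2.13 at day 4, 1.39 and 1.82 at day 7, and 0.27 on the day 10 array. All knockout arrays lay below both controls, and the day 4 and day 7 arrays overlapped. Day 4 differed from control by -0.23 ± 0.25 (adjusted p = 0.98) and day 7 by -0.58 ± 0.25 (adjusted p = 0.24). The day 10 array was 3.79-fold lower (-1.92 ± 0.31, adjusted p = 0.0063). From day 7 to day 10 it fell by 1.34 ± 0.31 (adjusted p = 0.032), in a comparison in which 18.2% of all features were called. That last call ended without day 7 replicate 2 (adjusted p = 0.074), without either control (0.059) and without either day 4 replicate (0.057). The dimmer Slc11a2 probe differed by -0.80 at day 7 and -1.05 at day 10.

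Slc46a1, the folate and putative heme transporter, had lower levels at day 7 and day 10, of which the latter passed the test. Its level was 8.33 and 8.19 in controls, 7.64 and 8.36 at day 4, 6.36 and 7.13 at day 7, and 5.29 on the day 10 array. The day 4 arrays straddled the controls, and the day 7 and day 10 arrays lay below all earlier ones. The difference of -1.52 ± 0.36 at day 7 did not pass (adjusted p = 0.061), and that of -2.97 ± 0.44 at day 10 did (7.83-fold lower, adjusted p = 0.0048). At day 7 it passed with array median scaling (adjusted p = 0.034), when features had to be detected on every array (0.033) and without day 7 replicate 2 (0.047). The dimmer probe differed by -1.84 at day 7 and -3.10 at day 10.

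**Figure D2:**
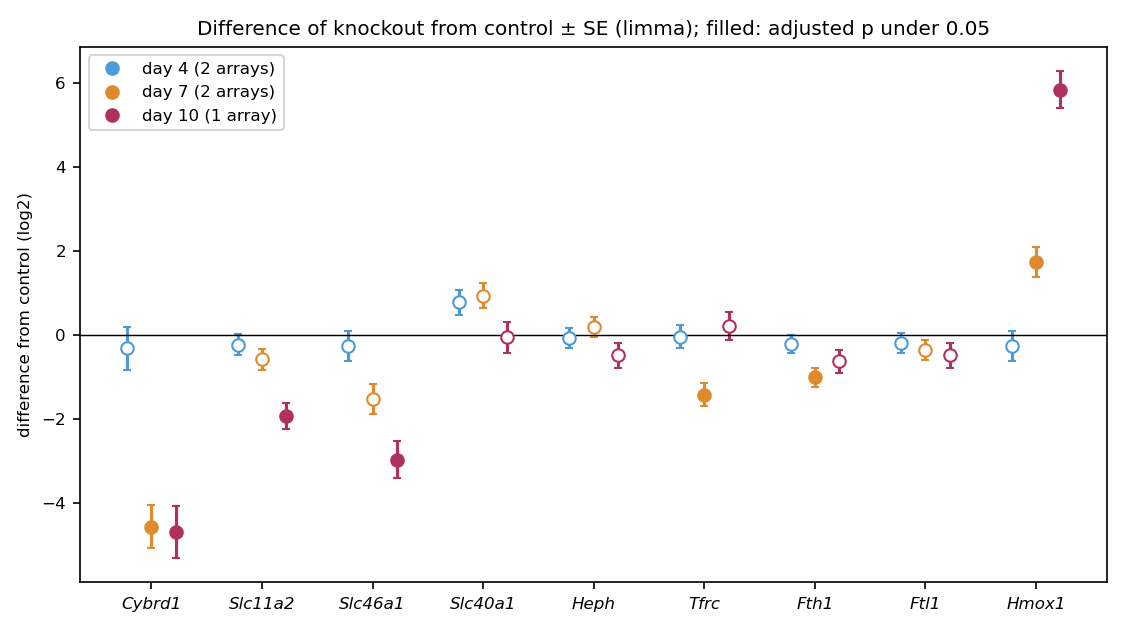
Difference of each knockout group from control (log2) with the limma SE for the 9 tested genes, at day 4, day 7 and day 10. Filled points have an adjusted p under 0.05. No point is filled at day 4, and Cybrd1 and Hmox1 are filled at both later times.

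These falls stood beside changes in enterocyte markers that differed by time. At day 7, 3 of 23 absorptive enterocyte markers were called lower and none higher (median -0.35), and their summed signal was 4210 and 5380 times the array's 75th percentile against 5490 and 6170 in controls. On the day 10 array 21 of 23 were lower (median -2.68) and the sum was 1310. Fabp2, the intestinal fatty acid-binding protein gene, differed by -0.57 at day 7 (adjusted p = 0.29) and was 8.57-fold lower on the day 10 array (adjusted p = 0.0017). Krt20 and Ada, also among the brightest of the list, differed by -0.19 and 0.09 at day 7 (adjusted p = 0.81 and 0.84 in limma). On the day 10 array Krt20 differed by -0.21 and Ada was 3.44-fold lower. In these bulk samples fewer enterocytes and less of a transcript per enterocyte cannot be told apart. The part of enterocyte number in the changes of Cybrd1, Slc46a1 and Slc11a2 was not tested. The genes whose profile over the 7 arrays lay nearest to that of Cybrd1, among 11695 named genes detected on all arrays, were Slc13a1, Ramp1 and Slc22a13b, with root mean square distances of 0.47, 0.53 and 0.64 log2 units. Slc13a1, a sodium and sulfate cotransporter gene, differed from control by 0.03 at day 4, -3.90 at day 7 and -4.92 at day 10.

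**Figure D3:**
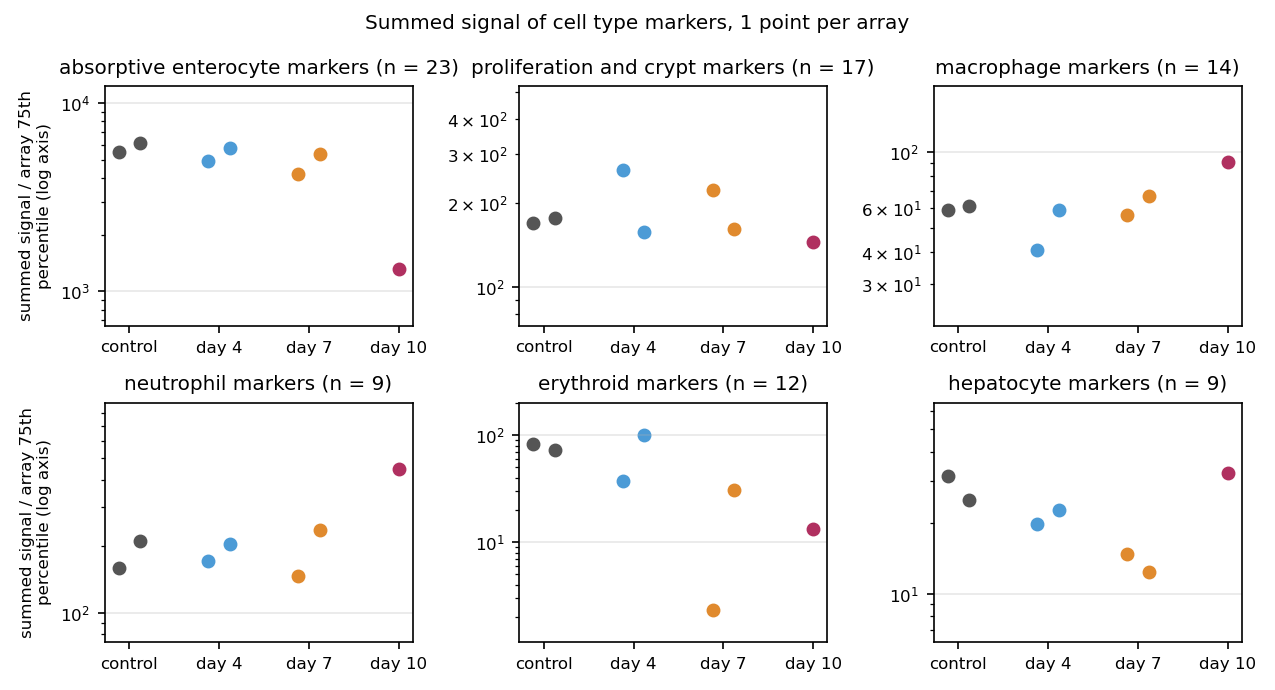
Summed signal of 6 marker lists per array, relative to the array's 75th percentile, on log axes with 1 point per array and n as the number of markers summed. Absorptive enterocyte markers drop to 1310 on the day 10 array, where neutrophil markers reach 447.

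Neither gene of basolateral export passed by its brightest probe in any of the 5 comparisons. Slc40a1, the iron exporter, had levels of 4.04 and 4.81 in controls, 5.11 and 5.30 at day 4, 5.36 and 5.38 at day 7, and 4.37 on the day 10 array. All day 4 and day 7 arrays lay above both controls, and the day 10 array lay between the controls. Day 4 differed from control by 0.78 ± 0.30 (adjusted p = 0.77) and day 7 by 0.94 ± 0.30 (adjusted p = 0.13). For the day 10 array the difference was -0.05 ± 0.37 (adjusted p = 0.93). The sign at day 10 turned with 5 of the alternatives, with values from -0.44 to 0.33.

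Heph, the ferroxidase that works with ferroportin, was measured by 3 probes that did not run together. The brightest had levels of 6.00 and 6.02 in controls, 5.78 and 6.08 at day 4, 6.00 and 6.41 at day 7, and 5.53 on the day 10 array. The dimmest probe, annotated like the other dim one to another transcript, was higher on all knockout arrays than in both controls. Fitted as a feature of its own, it exceeded control by 1.12 ± 0.40 at day 4 and by 1.26 ± 0.40 at day 7, which did not pass limma's test (adjusted p = 0.72 and 0.13), and it was well above background on 1 of the 2 controls. The other dim probe differed by -0.06 and 0.47 at these times. Both were higher on the day 10 array than on the other 6. In the same fit they differed from control there by 1.17 ± 0.30 (adjusted p = 0.032) and 2.09 ± 0.49 (adjusted p = 0.024), against -0.48 ± 0.30 for the brightest (adjusted p = 0.28). The direction of Heph thus depends on the probe, and the mean of its probes gave 0.93 at day 10 (adjusted p = 0.043).

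Tfrc, the transferrin receptor, fell at day 7 and did not differ detectably from control on the day 10 array. Its brightest probe, printed as 10 spots, had levels of 2.32 and 2.19 in controls, 2.46 and 1.97 at day 4, 1.04 and 0.63 at day 7, and 2.46 on the day 10 array. Both day 7 arrays lay below the other 5. Day 4 differed from control by -0.04 ± 0.27 (adjusted p = 1). Day 7 was 2.68-fold lower (-1.42 ± 0.27, adjusted p = 0.033), and the day 10 array differed by 0.21 ± 0.33 (adjusted p = 0.68). From day 7 to day 10 it rose by 1.63 ± 0.33 (3.09-fold, adjusted p = 0.022), and from day 4 to day 7 the difference was -1.38 ± 0.27 (adjusted p = 0.062). The other 2 probes differed from control by -1.63 and -1.61 at day 7 and by -0.40 and -0.13 at day 10. The spots of the brightest probe ranged from 712 to 1876 in signal on control replicate 1, a wider spread than on any other array. The day 7 call ended in 8 of 17 alternatives (differences from -1.62 to -1.21), among them leaving out any of the 6 replicates. The rise to day 10 lost its call in 2 of 17, 1 of them without day 7 replicate 2.

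Of 16 tested proliferation and crypt markers, 2 were lower at day 7 and 3 at day 10, with medians of 0.24 and -0.05. Their summed signal was 170 and 177 in controls, 222 and 161 at day 7, on both sides of the controls, and 145 on the day 10 array. Levels of Pcna, the replication clamp gene, differed by 0.29 at day 7 (adjusted p = 0.55). Single markers of this list differed from control by -2.72 to 0.71 at day 7 and by -6.18 to 0.68 on the day 10 array. The crypt marker Lgr5 was well above background on every array but that of day 10. The genes nearest in profile to Tfrc were Tpbg, Slc7a4 and the lysosomal membrane protein gene Scarb2, with distances of 0.23, 0.24 and 0.25.

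**Figure D4:**
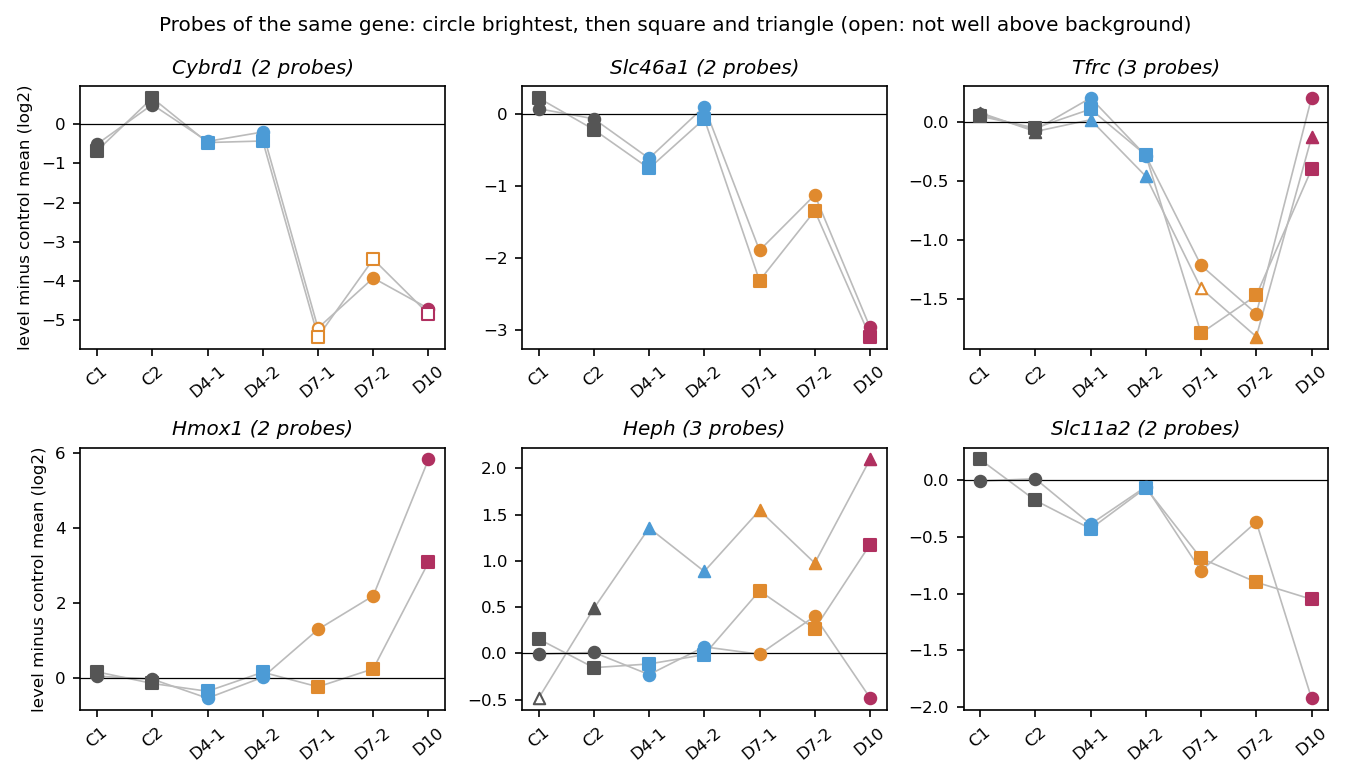
Level of each probe minus its mean in the controls (log2) for 6 genes with several probes (Ftl1 is not drawn), by array, with open symbols where the signal was not well above background (C, control; D4, D7 and D10, days after tamoxifen). The probes of Cybrd1, Slc46a1 and Tfrc run together, those of Hmox1 differ in size at day 7 and day 10, and those of Heph differ from day 4 on.

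Of the ferritin subunits, Fth1 fell at day 7 and Ftl1 did not pass in any comparison. Fth1, the subunit with ferroxidase activity, had levels of 9.50 and 9.42 in controls, 9.11 and 9.37 at day 4, 8.35 and 8.54 at day 7, and 8.83 on the day 10 array. Both day 7 arrays lay below the other 5. It was 2.02-fold lower than control at day 7 (-1.01 ± 0.22, adjusted p = 0.048) and differed by -0.63 ± 0.27 at day 10 (adjusted p = 0.13). This call stood at the threshold and ended in 11 of 17 alternatives (differences from -1.30 to -0.74). Among these were leaving out any of the 6 replicates and quantile normalization (adjusted p = 0.091). Ftl1, the light subunit, had levels of 8.39 and 8.45 in controls, 8.12 and 8.35 at day 4, 7.84 and 8.28 at day 7, and 7.94 on the day 10 array. All knockout arrays lay below both controls. The difference of -0.36 ± 0.24 at day 7 (adjusted p = 0.44) did not pass, nor did that of -0.48 ± 0.30 on the day 10 array (adjusted p = 0.28). Its dimmer probe differed by -0.83 at day 7 (adjusted p = 0.10). Ferritin genes have many near-identical copies in the genome, so which copy a probe measured is uncertain.

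Hmox1, which opens the heme ring and releases its iron, had the largest rise of the tested genes. Its level was -1.10 and -1.18 in controls, -1.69 and -1.13 at day 4, 0.15 and 1.05 at day 7, and 4.70 on the day 10 array. The day 7 arrays lay above all 4 earlier ones, and the day 10 array lay far above both. Day 7 was 3.35-fold above control (1.74 ± 0.36, adjusted p = 0.042), and the day 10 array was 57.5-fold above it (5.85 ± 0.44, adjusted p = 5.1e-04). Day 7 exceeded day 4 by 2.01 ± 0.36 (adjusted p = 0.048), where 2.8% of all features were called, and day 10 exceeded day 7 by 4.10 ± 0.44 (17.2-fold, adjusted p = 0.0026). The dimmer probe rose by 3.08 ± 0.36 at day 10 (adjusted p = 0.0021) but not at day 7 (0.00 ± 0.29, adjusted p = 1), so the day 7 rise rests on 1 of 2 probes. From day 4 to day 7 the dimmer probe differed by 0.11 ± 0.29 (adjusted p = 0.89 in limma). The call of the brighter probe between these days ended in 12 of 17 alternatives. Against control, the mean of both probes gave 0.87 at day 7 (adjusted p = 0.18). In all, the day 7 call ended in 10 of 17 alternatives (differences from 0.87 to 2.19). Among these were normexp background correction (adjusted p = 0.13) and leaving out any replicate other than day 7 replicate 1. The day 10 call held in each of these settings.

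Hmox1 and Slc40a1 are also abundant in macrophages. Of 14 macrophage markers on the array, 9 and 8 were well above background in controls, 9 and 9 at day 7, and 11 on the day 10 array. Their summed signal was 58.6 and 61.2 in controls, 56.3 and 67.0 at day 7, and 90.8 at day 10. Most of each sum was Itgam, at levels of 5.2 and 5.29 in controls, 5.58 and 5.83 at day 7, and 6.01 at day 10. Most of the rest in controls was Mertk. The day 10 array lay 0.77 above control for Itgam, which was not called. On that array 5 of the 10 tested were higher and 1 lower, with the colony-stimulating factor receptor gene Csf1r at 3.34 (adjusted p = 0.0011) and Mertk at -5.52 (adjusted p = 4.6e-04). The macrophage genes Cd163, Vsig4 and Timd4 were not well above background on any of the 7 arrays. All 9 neutrophil markers were well above background on the day 10 array, against 4 or 5 on the others. Of the 5 tested, 2 were higher and 1 lower there (median 0.20). Their sum was 447 against 147 to 238, of which most before day 10 was Csf3r, at levels of 7.18 to 7.88 on all arrays up to day 7 and 7.70 at day 10. Without Csf3r, left out after its values were seen, the sum was 239 at day 10 and 1.36 to 3.60 before. Most of that 239 was S100a8 and S100a9, at levels of 5.92 and 7.43, also singled out after their values were seen. Cxcr2, Camp, Ngp and Mmp8 were higher there than in both controls as well. Mpo was lower (-4.03 against -2.54 and -2.89), and Elane at 0.75 lay between the controls (1.65 and 0.62). The lymphocyte markers summed to 248 and 227 in controls, 385 and 329 at day 7 and 17.6 on the day 10 array. Of 12 tested, 1 was higher at day 7, the granzyme gene Gzmb (2.79-fold, adjusted p = 0.023), and 6 were lower at day 10. The part of these cells in the rise of Hmox1 was not tested.

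Hamp, the hepcidin gene, was at background until the last array. Its level was -5.80 and -5.68 in controls, -6.60 and -6.40 at day 4, and -5.69 and -5.99 at day 7, in each case not well above background, and 0.59 on the day 10 array. That array was at least 32.1-fold above the controls and at least 22.6-fold above day 7, and it has no replicate. Hamp entered a test only with no filter on dim probes, where it passed at day 10 (adjusted p = 6.1e-04). Its control signals were not well above background, so no size is given beyond these bounds, which are not strict limits. Hamp2, whose sequence is close to that of Hamp, went the other way. Its probe read -3.26 and -3.51 in controls, -3.75 and -3.32 at day 4, -5.66 and -6.07 at day 7, and -6.47 at day 10. It was well above background in the controls and at day 4 only. The bounds that follow are of the kind given for Cybrd1 and are not strict limits. It was at least 1.44-fold lower at day 7 (adjusted p = 0.0065), and at least 1.91-fold lower on the day 10 array (adjusted p = 0.0015). The windows printed above are 89.7% identical, and the G4A change in the BMP core of Hamp2 is among other differences between them. The STAT site is in both. Whether any of these letters bears on the levels of the 2 genes was not tested.

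Liver cells are the usual source of hepcidin. Of the 9 hepatocyte markers measured on all arrays, 5 were well above background on the day 10 array, against 6 and 7 in controls. Their summed signal was 32.5 there and 31.7 and 25.0 in controls. The day 10 sum was mostly Tat, the tyrosine aminotransferase gene, at a level of 4.82 against -2.31 and -2.85 in controls. Without Tat, singled out after its values were seen, the sum was 4.26 there and 31.5 and 24.9 in controls. In controls most of that sum was Apoa2, Cps1 and Serpina1a, which had levels of 1.63, -0.98 and -1.14 on the day 10 array. The albumin gene Alb, the transthyretin gene Ttr and the fibrinogen genes Fgb and Fga were not well above background on the day 10 array. Neither control had Fgb or Fga well above background, and only control replicate 2 had Alb so. Of 7 tested hepatocyte markers 5 were lower and 1 higher at day 10 (median -2.96). Whether liver cells were the source of Hamp on that array was not tested.

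The counts called in the gene and marker lists stand beside those over all features. Against control, 4.31% of all features were lower and 3.05% higher at day 7, and 17.5% and 10.7% on the day 10 array. Of 35 other tested genes of iron uptake, export and regulation, none rose and 3 fell at day 7 (median -0.21). At day 10, 5 rose and 11 fell (median -0.37). Those that fell at day 7 were Hamp2, Slc39a8, a metal importer gene (3.19-fold, adjusted p = 0.012), and Aco1, which encodes iron regulatory protein 1, the cytosolic aconitase that binds iron-responsive elements of ferritin, Tfrc and ferroportin transcripts (2.56-fold, adjusted p = 0.029). Aco1 was 7.75-fold lower at day 10 (adjusted p = 0.0013). Ncoa4, the receptor for the autophagy of ferritin, differed by -1.31 ± 0.31 at day 7 (adjusted p = 0.062), and Slc22a17, a receptor gene for lipocalin 2, by -0.84 ± 0.22 (adjusted p = 0.082).

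Of 14 heme synthesis genes none rose, 2 fell at day 7 and 6 fell at day 10 (medians -0.49 and -1.01). Cpox, the coproporphyrinogen oxidase gene, was 2.47-fold lower at day 7 (adjusted p = 0.031), and Slc25a39, a mitochondrial carrier gene, was 2.06-fold lower (adjusted p = 0.040). Alas1, the enzyme that starts heme synthesis outside red cells, differed by -0.75 ± 0.26 (adjusted p = 0.16). Alas2, its erythroid form, differed by -2.41 ± 0.83 (adjusted p = 0.15), with 1 of the 2 day 7 arrays not well above background. The summed signal of 12 erythroid markers was 82.6 and 72.5 in controls, 37.3 and 101 at day 4, 2.32 and 31.0 at day 7, and 13.3 on the day 10 array. None of the 7 tested was called by limma in any comparison.

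Among 18 other genes of heme transport and breakdown, 2 rose and 3 fell at day 7, and 3 rose and 7 fell at day 10. Flvcr1, a heme exporter gene, was 3.30-fold lower at day 7 (adjusted p = 0.037) and its relative Flvcr2 was 2.98-fold higher (adjusted p = 0.041). Flvcr2 levels were 1.05 and 1.76 in controls, 3.21 and 2.75 at day 7 and 1.62 on the day 10 array. Abcc5, a transporter implicated in heme export, was 5.72-fold higher at day 7 (adjusted p = 0.0075), and 15.4-fold higher on the day 10 array (adjusted p = 8.2e-04). The reductase genes Cyb5r3 and Por were 3.23-fold (adjusted p = 0.020) and 2.26-fold (adjusted p = 0.046) lower at day 7.

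**Figure D5:**
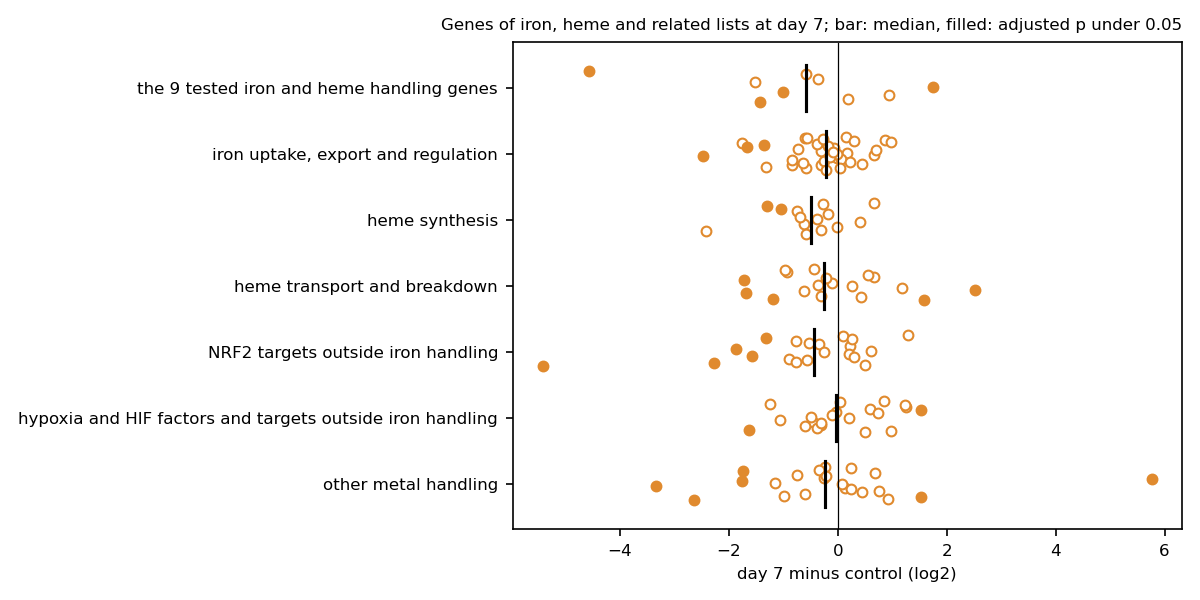
Difference of day 7 from control (log2) for the 9 tested iron and heme handling genes and the genes of 6 related lists, with a bar at each list's median and filled points at an adjusted p under 0.05. Medians lie between -0.58 and -0.03, and most points in each list are open.

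Hmox1, Fth1 and Ftl1 are known targets of NRF2, the transcription factor of the antioxidant response. Of the 3 only Hmox1 was called higher at day 7, by 1 of its 2 probes. Of 20 other genes tested in the NRF2 list, which holds its targets and also Nfe2l2 (the NRF2 gene) and Keap1, none rose and 5 fell then (median -0.44). The part of NRF2 in the rise of Hmox1 was not tested. Gstm1, a glutathione S-transferase gene, was 42.4-fold lower (adjusted p = 0.0022), and Nqo1, a quinone reductase gene, was 3.63-fold lower (adjusted p = 0.022). Ephx1, an epoxide hydrolase gene, was 4.82-fold lower (adjusted p = 0.028), and the exporter gene Abcc2 was 2.98-fold lower (adjusted p = 0.036). Gclc, which encodes the rate-limiting enzyme of glutathione synthesis, was 2.48-fold lower at day 7 (adjusted p = 0.033) and, on the day 10 array, 4.34-fold higher (adjusted p = 0.0044). On the day 10 array 5 of the 20 were higher and 4 lower.

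Cybrd1, Slc11a2 and Slc40a1 are known targets of HIF-2 in the duodenum. Of 21 other HIF factors and targets, 1 rose and 1 fell at day 7 (median -0.03), and 6 rose and 2 fell at day 10 (median 0.74). P4ha1, a collagen prolyl hydroxylase gene, was at least 1.88-fold higher at day 7 by its brightest probe (adjusted p = 0.019), and Bnip3, a mitophagy receptor gene, was 3.09-fold lower (adjusted p = 0.021). Slc2a1, the glucose transporter GLUT1 gene, differed by 1.23 ± 0.32 at day 7 (adjusted p = 0.081) and was 17.2-fold higher on the day 10 array (adjusted p = 0.0011). Epas1, which encodes HIF-2 alpha and was singled out after its values were seen, differed by -1.06 ± 0.50 at day 7 (adjusted p = 0.28).

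The last list holds genes that handle other metals. Of 22 tested, 2 rose and 4 fell at day 7, and 4 rose and 10 fell at day 10. Trpm6, a magnesium channel gene, was 54.1-fold higher at day 7 (adjusted p = 0.0019), and 309-fold higher on the day 10 array (adjusted p = 2.5e-04). S100g, which encodes the calcium carrier calbindin-D9k, was 10.1-fold lower at day 7 (adjusted p = 0.020), and 547-fold lower on the day 10 array (adjusted p = 4.7e-04). The zinc transporter genes Slc39a5 and Slc30a2 were 3.34-fold (adjusted p = 0.012) and 3.36-fold (adjusted p = 0.035) lower at day 7, and Slc31a2, a copper transporter family gene, was 2.88-fold higher (adjusted p = 0.014).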

How the data were processed

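Per the file headers, the deposited intensities come from 1-colour (Cy3) arrays read with Agilent Feature Extraction. The processed intensity is background-subtracted and detrended, per the file headers, and was not scaled between arrays. The headers give mm9 as build label. The deposited value table equalled it within 0.1% for 100% of single-spot probes and was used as an alternative. It is linear and not centred (column medians 15.2 to 30.5).

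Control and outlier spots were left out, spots of a probe were averaged as log2, and each array's 75th percentile was subtracted. Accessions were named through RefSeq (GRCm38.p6): 27503 probes had 1 symbol, none several and 28178 none. A feature was a gene's brightest probe, or a probe without a symbol, if 2 or more of the 7 arrays had it well above background (13799 with a symbol, 10963 without). limma 3.58.1 in R 4.3.3 fitted 1 mean per group (3 residual and 3.15 prior degrees of freedom), 2-sided, with Benjamini-Hochberg adjustment over all features. It was tested on simulated data. Replicates are different mice per the series' design text. Their correlations were 0.985 (control), 0.988 (day 4) and 0.977 (day 7). The small number of arrays limits precision.

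Alternatives were array median scaling, the percentile over probes detected on all arrays, quantile normalization, normexp (offset 50, on median signals, since the files used here hold no mean signal), the deposited table, 2 other filters on dim probes, 2 other treatments of a gene's probes, only the groups compared, a replicate block and leaving out each replicate. The 10 genes, the related lists and the alternatives were chosen with earlier results of these data known. Named genes were all 10, the 5 of each related list with the smallest p at day 7, the brightest 3 of each marker list, and the 3 genes nearest in profile to Cybrd1 and Tfrc. Some of the list and marker genes so named are not printed. Promoters are RefSeq windows, aligned with Biopython 1.88.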

Additional observations from a re-analysis of the deposited data

Results flagged for a closer look

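The knockout time points differed from each other in 5 of the values for these genes. Cybrd1 was lower at day 7 than at day 4 by a log2 difference of -4.25, and Hmox1 was higher by 2.01. On the day 10 array, set against day 7, Slc11a2 differed by -1.34, Tfrc by 1.63 and Hmox1 by 4.10. Each passed limma's test of the difference between the 2 time points, with adjusted p values of 0.019, 0.048, 0.032, 0.022 and 0.0026. The day 10 values rest on 1 array, and day 4 and day 7 lay in different rows of the slide, so row and time cannot be told apart for the first 2. Between day 4 and day 7 the call ended in 4 of 16 alternatives for Cybrd1 and 12 of 17 for Hmox1. The dimmer Hmox1 probe differed by 0.11 between these days. From day 7 to day 10 the call ended in 10 of 17 alternatives for Slc11a2, 2 of 17 for Tfrc and none for Hmox1.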

How the results depend on the processing

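Over 17 alternatives, 661 of 760 values for single genes kept their direction and side of the threshold, 57 lost a call, 11 gained one and 31 turned direction. None of the 31 was called as reported, and 1 was called after turning (Heph at day 10 with the mean of its probes, adjusted p = 0.043). Of the 9 genes 4 were called at day 7 against control. That count was 2 with the percentile over probes detected on all arrays, 1 with no filter on dim probes, 1 with only the 2 groups fitted, and 1 to 2 when a replicate was left out. Day 7 against day 4 had 2 calls, and had 1 with the detected-probe percentile, 1 with quantile normalization, 0 with no filter, 1 with only the 2 groups and 0 to 1 without a replicate. Day 10 against day 7 had 3 calls, and had 1 with only the 2 groups and 1 to 4 without a replicate. Day 10 against control had 4 calls, from 3 to 5 elsewhere, and day 4 had 0 in each setting. Slc11a2 lost its call between day 7 and day 10 with the mean of its probes (adjusted p = 0.10). The cause of these changes was not tested.

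The labels do not say whether replicate numbers pair the samples. Deviations of the replicates correlated at 0.01 (control and day 4), 0.09 (control and day 7) and 0.25 (day 4 and day 7). With only 2 numbers, these values cannot decide whether a number marks a shared litter or batch. With the replicate block, 4 genes were called at day 7 against control, 3 at day 7 against day 4, 4 at day 10 against control and 2 at day 10 against day 7. The block turned the day 10 differences of Slc40a1 from control to 0.11, of Cybrd1 from day 7 to 0.29 and of Ftl1 from day 7 to 0.00.

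Differences turned direction as follows. Quantile normalization gave 0.01 for Heph and 0.03 for Fth1 at day 4, and at day 10 0.23 for Slc40a1 and 0.01 for Ftl1 against control and 0.12 for Ftl1 against day 7. Normexp gave 0.21 for Slc46a1 at day 4, -0.03 for Heph at day 7, 0.18 for Slc40a1 at day 10, and 0.02 for Ftl1 from day 7 to day 10. The mean of a gene's probes gave 0.33 for Heph at day 4, 0.93 for Heph and -0.11 for Tfrc at day 10, and 0.29 for Heph and 0.25 for Ftl1 from day 7 to day 10. The detected-probe percentile gave 0.15 for Slc40a1 at day 10, and 0.05 for Cybrd1 and 0.07 for Ftl1 from day 7 to day 10.

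Without 1 replicate, the day 4 differences ranged from -0.82 to 0.18 (Cybrd1), -0.23 to 0.07 (Heph), -0.29 to 0.20 (Tfrc), -0.54 to 0.01 (Hmox1) and -0.62 to 0.10 (Slc46a1). Heph ranged from -0.01 to 0.39 at day 7, Ftl1 from -0.40 to 0.05 between day 4 and day 7, and Slc40a1 from -0.44 to 0.33 at day 10. Between day 7 and day 10 Cybrd1 ranged from -0.78 to 0.50 and Ftl1 from -0.34 to 0.10.

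Over all features, calls at day 7 ranged from 534 to 2105 against control and from 0 to 1101 against day 4. At day 4 they ranged from 1 to 27, and from 2383 to 5259 between day 7 and day 10. The share of calls that were higher at day 10 against control was 38% and became 49.2% with the detected-probe percentile, where the median of all features moved from -0.13 to 0.08. Against day 7 it went from 39.7% to 50.9%, and between day 4 and day 7 from 45.8% to 35.2% with array median scaling. At day 4 it went from 100% to 88.9%. Signals near background (Hamp, Hamp2, Cybrd1 from day 7) limit the size of a fold.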
